A study of Mus musculus with 2 samples.

Results

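Astrocytes clear the water and potassium that active neurons release, and they pass both on from cell to cell through gap junctions and out to vessels at their endfeet. Aqp4 encodes the water channel aquaporin-4. Kcnj10 and Kcnj16 encode the inward rectifier potassium channels Kir4.1 and Kir5.1, which can form joint channels, and Atp1b2 encodes the beta subunit AMOG of the sodium pump, which takes up potassium. Gja1 and Gjb6 encode connexin 43 and connexin 30, the main gap junction proteins of astrocytes, while Mlc1 and Hepacam (GlialCAM) encode membrane proteins that bind each other at astrocyte junctions and take part in volume regulation.

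These 8 genes were picked by symbol from the 32285 genes counted, and all 8 were found and measured. Whole spinal cords of FVB mice had been dissociated at postnatal day 4 and profiled by single-cell RNA-seq. The library labelled SMA came from mSmn-/-, hSMN22tg/0 mice and the library labelled Con from mSmn+/-, hSMN22tg/0 mice. Spinal muscular atrophy (SMA) follows from loss of the SMN protein. Mice of both libraries carried the human SMN2 transgene, so Con is a heterozygous carrier control and not wild type. The model is the severe form of the Taiwanese line. Per the study's methods, 3 littermates were pooled in each library. There was thus 1 sample per group, no test between SMA and Con was possible, and every interval (95%) covers counting error only.

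A unique molecular identifier (UMI) marks 1 captured RNA molecule. The SMA library held 26921 barcodes with 85872075 UMIs and the Con library 25419 barcodes with 97894084 UMIs. The libraries had 8163 barcodes in common, and the SMA copies of these were left out. Smn1, the targeted gene, stood at 48.1 CPM in SMA (46.2 to 50.2) and 43.8 CPM in Con (42.2 to 45.5) over all kept cells, where CPM is the UMIs of a gene scaled to the same total in every library and class. It was thus not lower in the library labelled SMA, but slightly higher, against the genotype labels, and in astrocyte-like cells it stood at 42.6 and 42.2 CPM. Which part of the transcript these 3′ counts cover relative to the targeted part is not known here, so Smn1 does not check the labels, and SMA and Con below stand for the libraries so labelled. The limits of 200 to 4000 genes and under 10% mitochondrial UMIs, with the removal of a cluster of high ribosomal share (1341 Con and 0 SMA barcodes), left 6787 SMA cells and 8915 Con cells, with medians of 6109 and 6235 UMIs. Clusters were named from markers that did not include the 8 genes, and names are written with "-like". The classes held 1228 SMA and 1513 Con astrocyte-like cells and 628 SMA and 293 Con ependymal-like cells. Of the Con astrocyte-like cells, 1287 (85.1%) carried a barcode also listed for SMA, which left 226 with a median of 3580 UMIs. Differences of the 8 genes between the libraries are therefore given with and without the shared Con barcodes in these classes, and within sub-clusters mostly with all Con cells. All 13 astrocyte markers were detected in the astrocyte-like cells and were higher there than in any other compared class, with a summed level of 11532 and 11201 CPM in SMA and Con, against 1539 and 1381 CPM in ependymal-like cells. In astrocyte-like cells Xist stood at 1.41 CPM in SMA and 675 CPM in Con, 4 Y-linked genes at 151 and 68.8 CPM, and haemoglobin genes at 2109 and 10151 CPM. The sex of the pooled mice, which the sources used here do not state, cannot be told apart from the genotype.

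Of the 8 genes 6 matched the RefSeq promoter set used here (GRCm38.p6), Kcnj16 with 4 start sites. For the 5 with a single start the 250 bases before it are shown, 5′ to 3′ on the gene's strand, to set the connexin genes beside the potassium channel and junction genes. Capitals mark TTGGC or its reverse complement GCCAA, the core bound by nuclear factor I proteins, which act in astrocyte development.
Kcnj10, chr1:172340960-172341209 (+ strand): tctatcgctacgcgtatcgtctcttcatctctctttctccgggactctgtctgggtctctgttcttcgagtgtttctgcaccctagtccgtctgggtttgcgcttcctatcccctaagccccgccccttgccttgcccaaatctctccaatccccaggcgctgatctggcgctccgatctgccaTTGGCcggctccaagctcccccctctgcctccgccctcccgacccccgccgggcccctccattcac
Gja1, chr10:56377050-56377299 (+ strand): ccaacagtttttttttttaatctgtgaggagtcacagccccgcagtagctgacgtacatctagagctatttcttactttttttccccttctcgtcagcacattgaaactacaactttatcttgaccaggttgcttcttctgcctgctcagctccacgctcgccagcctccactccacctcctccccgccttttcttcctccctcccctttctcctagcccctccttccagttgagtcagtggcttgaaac
Gjb6, chr14:57133612-57133861 (- strand): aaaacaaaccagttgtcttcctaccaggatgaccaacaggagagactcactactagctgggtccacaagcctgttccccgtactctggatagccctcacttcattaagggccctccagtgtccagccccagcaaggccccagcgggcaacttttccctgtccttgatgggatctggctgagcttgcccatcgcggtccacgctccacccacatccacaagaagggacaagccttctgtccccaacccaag
Mlc1, chr15:88978554-88978803 (- strand): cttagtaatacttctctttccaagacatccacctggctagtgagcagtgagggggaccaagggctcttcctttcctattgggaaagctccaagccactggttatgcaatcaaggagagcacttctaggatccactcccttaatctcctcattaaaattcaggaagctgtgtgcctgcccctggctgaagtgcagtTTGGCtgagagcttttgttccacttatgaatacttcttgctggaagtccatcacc
Hepacam, chr9:37367356-37367605 (+ strand): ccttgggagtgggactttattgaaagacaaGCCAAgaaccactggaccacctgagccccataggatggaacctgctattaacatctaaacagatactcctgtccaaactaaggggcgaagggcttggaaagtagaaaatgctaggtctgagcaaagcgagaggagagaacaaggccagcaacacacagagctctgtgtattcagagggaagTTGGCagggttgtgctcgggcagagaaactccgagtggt
TTGGC, read on both strands, occurred in the stretches of Kcnj10, Mlc1 and Hepacam and not in those of Gja1 and Gjb6. Kcnj16, the other potassium channel gene, held TTGGC before some of its 4 starts and not before others. The Mlc1 and Hepacam stretches lie inside the annotated spans of their genes, and the Gja1 start was found in 0 of 8 GENCODE transcripts of the gene, so the stretches depend on the start chosen. Of all 32851 RefSeq stretches of that length 41.5% held it. ACAAAG (a SOX core, 16.5% of all stretches) and TTCNNNGAA (a STAT motif, 7.02%) were in none of the 5. These are letter matches and not measured sites.

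By GENCODE M21 on GRCm38 the genes are protein coding. Kcnj10 spans chr1:172341210-172374085 and Kcnj16 spans chr11:110968033-111027968, both on the plus strand. Gja1 spans chr10:56377330-56402513 on the plus strand and Gjb6 spans chr14:57123303-57133611 on the minus strand. Atp1b2 (chr11:69599736-69605942) and Mlc1 (chr15:88955884-88979007) are on the minus strand, and Hepacam (chr9:37367351-37386575) is on the plus strand. None of these 7 overlaps another annotated gene. Aqp4 overlaps an antisense transcript, AC133525.2, which had 62 and 75 UMIs in SMA and Con astrocyte-like cells against 14011 and 23857 UMIs of Aqp4.

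The first comparison asked in which cells the genes were expressed. In both libraries 7 of the 8 genes had their highest level in astrocyte-like cells among the 11 classes compared, against 6.19% of 13119 genes. The exception was Gjb6, which was higher in fibroblast-like cells. Levels are CPM of the UMIs summed over a class. UMIs count transcript ends and were not scaled to gene length, so levels were compared between classes and not between genes.

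**Figure D1:**
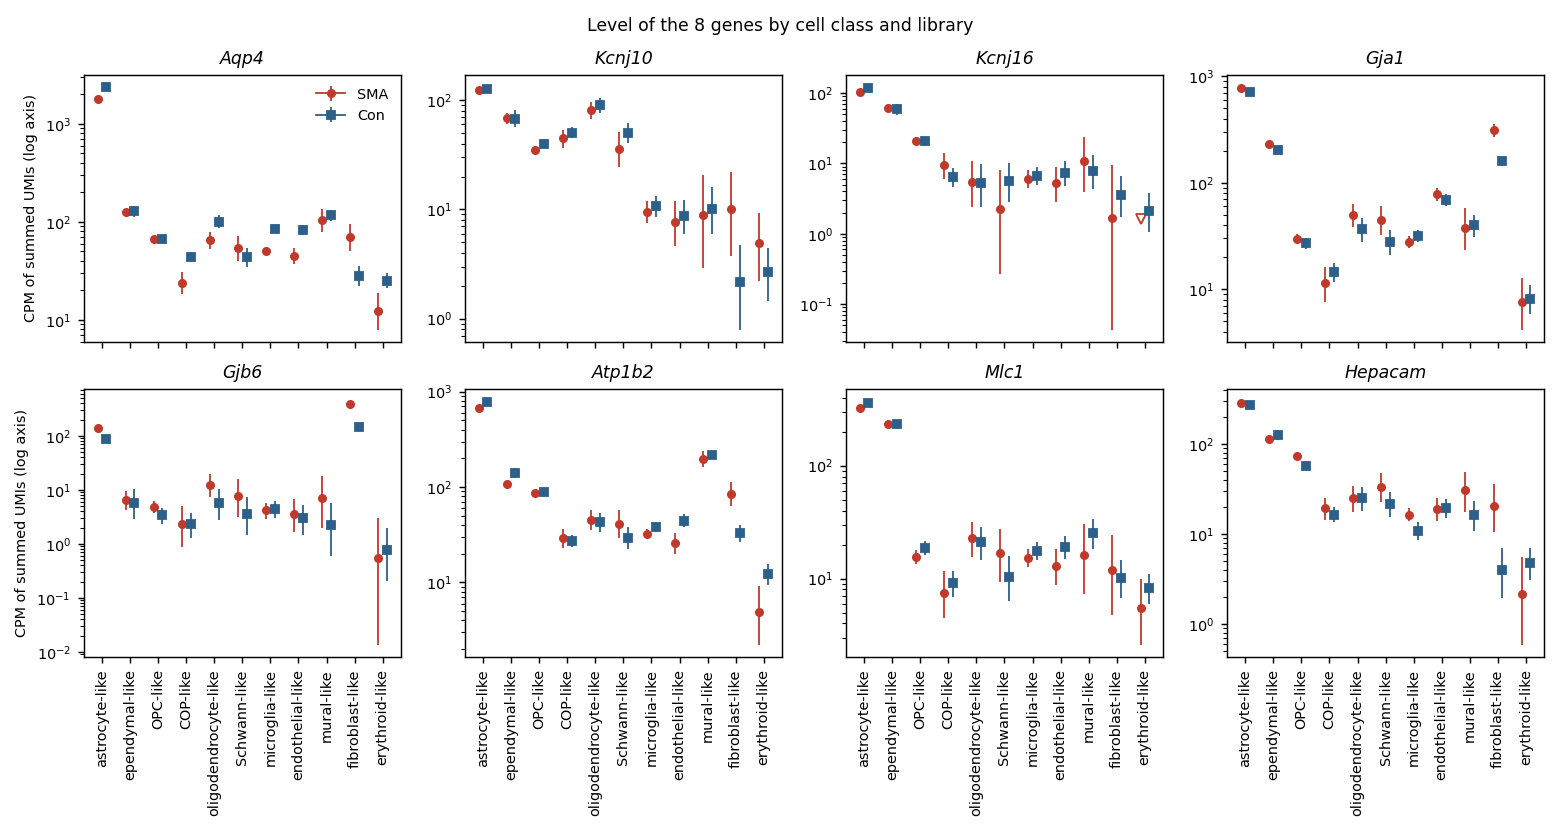
CPM of summed UMIs (log axis) of the 8 genes in the 11 cell classes, with SMA as red circles and Con as blue squares. Bars are 95% Poisson intervals, and the open triangle is an upper limit of 3 counts for a count of 0. The astrocyte-like points are the highest in 7 panels, and in the Gjb6 panel the fibroblast-like points at 385 and 149 CPM are.

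Aqp4 was expressed at 1794 CPM in SMA and 2361 CPM in Con astrocyte-like cells. The next class was the ependymal-like one at 126 and 129 CPM, followed by mural-like cells at 104 and 116 CPM. Astrocyte-like cells thus exceeded ependymal-like cells 14.3-fold in SMA (13.1 to 15.6) and 18.3-fold in Con (16.2 to 20.8). Erythroid-like cells, which should lack the channel, held 12.5 and 25.2 CPM. Their UMIs fall on few genes (medians of 350 and 352.5 genes on 11306 and 11282 UMIs), which lowers the CPM and thinned share of other genes. Low values in this class are thus no measure of background in other classes. Once each cell was thinned to 1000 UMIs, 74.1% of SMA (71.6 to 76.5) and 84.7% of Con (82.8 to 86.4) astrocyte-like cells had an Aqp4 UMI, against 2.45% and 3.25% of erythroid-like cells. Before thinning, when the median depth was 5880 and 6064 UMIs per astrocyte-like cell, the shares were 97.0% and 99.3%.

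The potassium channel genes were less restricted to astrocyte-like cells. Kcnj10 stood at 124 CPM in SMA and 126 CPM in Con astrocyte-like cells. Oligodendrocyte-like cells came next at 80.7 and 90.3 CPM, so that astrocyte-like cells were higher by 1.53-fold (1.26 to 1.87) and 1.39-fold (1.18 to 1.65). Ependymal-like cells held 68.0 and 67.9 CPM, committed oligodendrocyte precursors (COP-like) 44.6 and 50.5 CPM, and Schwann-like cells 35.8 and 50.4 CPM. Oligodendrocyte precursors (OPC-like) followed, and these 6 glial classes had the highest Kcnj10 levels in both libraries. COP-like and Schwann-like cells overlapped, as did Schwann-like and OPC-like cells. Microglia-like cells held 9.57 and 10.7 CPM and erythroid-like cells 4.89 and 2.66 CPM. Kcnj16 stood at 104 and 116 CPM in astrocyte-like cells, 61.6 and 59.0 CPM in ependymal-like cells and 20.8 and 20.5 CPM in OPC-like cells. In contrast to Kcnj10 it was low in oligodendrocyte-like cells, at 5.52 and 5.21 CPM. In SMA erythroid-like cells 0 UMIs of Kcnj16 were counted, which by a limit of 3 counts allows up to 1.63 CPM.

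The connexin genes shared a class outside the astrocytes. Gja1 stood at 778 CPM in SMA and 706 CPM in Con astrocyte-like cells, 231 and 204 CPM in ependymal-like cells, and 78.0 and 69.2 CPM in endothelial-like cells. In Gja1, fibroblast-like cells lay above ependymal-like cells in SMA and below them in Con. Gjb6 stood at 142 and 89.1 CPM in astrocyte-like cells and at only 6.43 and 5.74 CPM in ependymal-like cells, where 26 and 11 UMIs were counted. That ependymal-like level had an interval of 4.20 to 9.42 CPM in SMA and 2.87 to 10.3 CPM in Con, which overlapped the interval of microglia-like cells (2.92 to 5.82 and 3.04 to 6.27 CPM) and lay above the 0.543 and 0.759 CPM of erythroid-like cells. In fibroblast-like cells Gja1 stood at 311 CPM in SMA and 159 CPM in Con, and Gjb6 at 385 and 149 CPM. The Con value mixes 2 clusters, since 432 of the 600 Con fibroblast-like cells formed a cluster with 0 SMA cells. In that Con-only cluster 0 UMIs of Gjb6 were counted, which by the same limit allows up to 2.21 CPM, and Gja1 stood at 66.3 CPM. In the fibroblast-like cluster present in both libraries (63 SMA and 168 Con cells, led by Tff3, Slc13a4, Col13a1 and Slc6a13) Gjb6 stood at 385 CPM in SMA (337 to 439) and 289 CPM in Con, and Gja1 at 311 and 248 CPM. Within that cluster Gjb6 was 0.41 higher in SMA on the log2 scale (0.17 to 0.65) and Gja1 0.33 higher (0.06 to 0.59), with the shared Con barcodes included.

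Atp1b2 stood at 670 CPM in SMA and 775 CPM in Con astrocyte-like cells. Its second class was the mural-like one, the pericytes and smooth muscle of vessels, at 198 and 216 CPM, followed by ependymal-like cells at 107 and 139 CPM and OPC-like cells at 86.2 and 88.5 CPM. Astrocyte-like cells exceeded mural-like cells 3.38-fold in SMA (2.80 to 4.11) and 3.58-fold in Con (3.23 to 3.98).

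Mlc1 was the member in which ependymal-like cells came nearest to astrocyte-like cells. It stood at 325 and 359 CPM in astrocyte-like cells and at 234 and 231 CPM in ependymal-like cells, a ratio of 1.39 in SMA (1.29 to 1.502) and 1.55 in Con (1.40 to 1.72). All other classes held at most 25.2 CPM. Hepacam stood at 284 and 267 CPM in astrocyte-like cells, 113 and 126 CPM in ependymal-like cells and 73.8 and 57.3 CPM in OPC-like cells. Astrocyte-like cells exceeded OPC-like cells 3.85-fold (3.56 to 4.17) and 4.66-fold (4.26 to 5.11) in Hepacam, and 20.9-fold (18.0 to 24.4) and 19.2-fold (16.6 to 22.3) in Mlc1.

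Ependymal cells line the central canal, carry motile cilia and derive from radial glia, as astrocytes do. Against them 5 of the 8 genes (Aqp4, Gja1, Gjb6, Atp1b2 and Hepacam) were at least 2-fold higher in astrocyte-like cells in both libraries, and 11.4% of 11142 genes passed the same limit. Kcnj10, Kcnj16 and Mlc1 were higher by less than 2-fold, and for all 8 genes the interval of the ratio lay above 1 in both libraries. The ependymal-like class was made of 2 clusters. One, of 245 SMA and 139 Con cells, had Gm31592, Pdyn, Ffar4 and Foxa1 among its leading genes and held more Atp1b2 (162 and 212 CPM) than the other (71.8 and 78.5 CPM, 383 SMA and 154 Con cells). Gja1 went the opposite way, at 114 and 137 CPM in the first and 304 and 260 CPM in the other. Mlc1 was high in both, between 189 and 283 CPM.

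At 1000 UMIs per cell, a Con astrocyte-like cell held UMIs of 2.80 of the 8 genes on average and an SMA astrocyte-like cell 2.62. At least 4 of the genes were seen in 26.6% of Con (24.4 to 28.9) and 22.3% of SMA (20.0 to 24.7) astrocyte-like cells. The same was true of 0.694% of Con and 0.957% of SMA ependymal-like cells and of 0.0883% of Con and 0.0819% of SMA microglia-like cells. It was true of 0 of the 163 SMA and 462 Con erythroid-like cells, which allows shares of up to 2.24% and 0.795% (exact binomial). The UMIs of erythroid-like cells fall on few genes, which lowers this share.

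The genes whose class pattern was most like that of each member were ranked by Pearson's r of log2(CPM + 1) over the 22 sums of 11 classes and 2 libraries. This is a description, since the points share libraries and total depth. For Aqp4 they were Slc6a11 (r = 0.980), Slc7a10 and Acsbg1, all astrocyte markers used in the naming. For Kcnj10 they were Ttyh1 (0.951), Abhd3 and Sox2, and for Kcnj16 Fam181a (0.940), Pax6 and Gabrb1. For Gja1 they were Mgst1 (0.966), Gstm1 and Mcc, while for Gjb6 they were Svep1 (0.942), Igfbp2 and Cmbl. For Atp1b2 they were Adora2b (0.941), Fjx1 and Pla2g7, for Mlc1 Slc25a18 (0.967), Pax6 and Gdpd2, and for Hepacam Arhgef26 (0.944), Fads2 and Hoxb6. Between members, r was highest for Kcnj16 with Hepacam (0.911) and Aqp4 with Atp1b2 (0.906), and lowest for Kcnj10 with Gjb6 (0.155).

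The second comparison asked whether the genes differed between SMA and Con within astrocyte-like cells. With all cells, Gjb6 was the member most in excess in SMA and Aqp4 the one most in excess in Con, and both differences were several times smaller without the Con barcodes also listed for SMA. Gjb6, at 142 CPM in SMA and 89.1 CPM in Con, was higher in SMA by 0.68 on the log2 scale (0.55 to 0.80), or 1.60-fold. In the 226 Con cells whose barcode was not shared, Gjb6 stood at 128 CPM, and the ratio was 0.15 (-0.15 to 0.46). Aqp4, at 1794 and 2361 CPM, differed by -0.40 (-0.43 to -0.37), or 1.32-fold. In the unshared Con cells it stood at 1929 CPM, and the ratio was -0.10 (-0.18 to -0.03). When instead the SMA copies of shared barcodes were kept as well, the ratios were 0.56 and -0.30. The unshared Con cells were also shallower, with a median of 3580 UMIs against 5880 UMIs in SMA. They held 4 cells each of sub-clusters 4 and 5 (defined below), against 121 and 38 cells in SMA. Aqp4 was highest and Gjb6 lowest in these sub-clusters. The parts of depth, of this make-up and of the overlap were not tested.

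Over all cells, Gjb6 and Aqp4 were the 2 of 8 genes past a log2 difference of 0.32, the limit used for a count. That share was close to the 21.7% of all 9918 genes with at least 100 UMIs in astrocyte-like cells. Of those genes 6.48% were past the limit with SMA higher and 15.3% with SMA lower. The 8 genes had a median log2 ratio of -0.08, and all genes one of -0.07.

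With all cells the other members differed less than Gjb6 and Aqp4. Without the shared Con barcodes the genes past the limit were again 2, but they were Atp1b2 and Kcnj16. In that version 44.4% of 7681 genes were past the limit, so 2 of 8 is below the background. Gja1 and Hepacam did not keep their direction. Atp1b2 differed by -0.21 (-0.26 to -0.16) on the log2 scale and by -0.41 (-0.52 to -0.29) without the shared Con barcodes. Kcnj16 differed by -0.16 (-0.29 to -0.03) and -0.33 (-0.62 to -0.01), and Mlc1 by -0.14 (-0.21 to -0.07) and -0.17 (-0.35 to 0.01). The ratios of these 3 genes were below 0 in both versions, with 0 inside the second interval of Mlc1. Gja1 was higher in SMA by 0.14 (0.09 to 0.19) but differed by -0.08 (-0.20 to 0.04) without the shared barcodes, and Hepacam went from 0.09 (0.01 to 0.17) to -0.03 (-0.23 to 0.17). For Kcnj10 the ratio was -0.03 (-0.15 to 0.10) and then 0.12 (-0.20 to 0.45), and both intervals include 0. With all cells the interval lay above 0 for 3 members and below 0 for 4, where 11% and 21.2% of all genes with at least 100 UMIs did so. The width of an interval depends on the UMIs, and the members have 815 or more in each library, so these shares are not a like comparison. At a minimum of 300 UMIs, 16.9% of genes were past the limit of 0.32. In cells of at least 5000 UMIs, 856 in SMA and 1048 in Con, Gjb6 was 0.84 higher and Aqp4 differed by -0.40, and all of these 1048 Con cells carried shared barcodes.

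**Figure D2:**
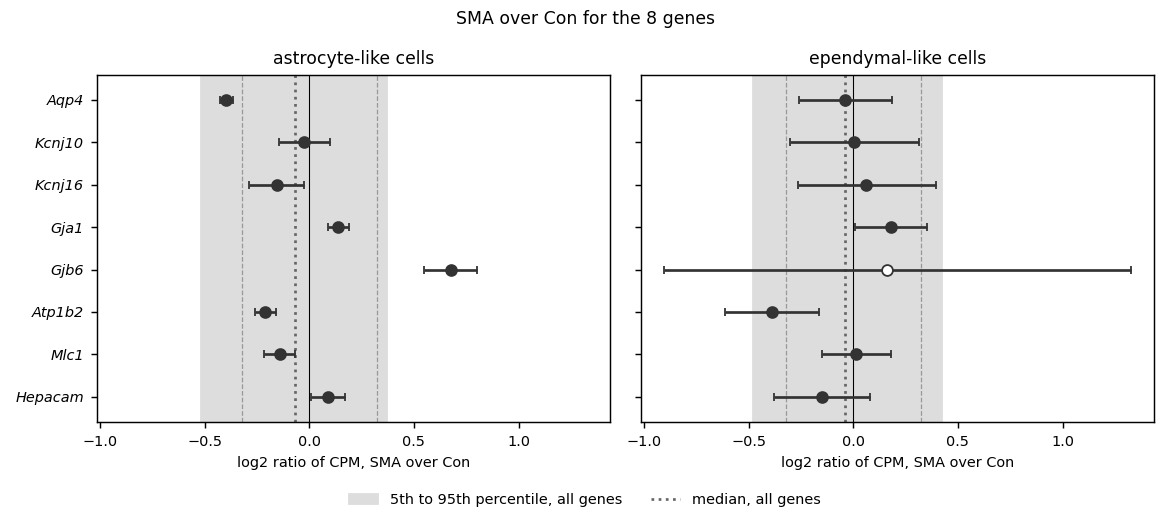
Log2 ratio of CPM, SMA over Con with all Con cells, for the 8 genes in astrocyte-like (left) and ependymal-like (right) cells. Bars are 95% counting intervals, the grey band and dotted line are the 5th to 95th percentile and the median of all genes with at least 100 UMIs, dashed lines are the limit of 0.32, and the open point has under 100 UMIs. In astrocyte-like cells Gjb6, at 0.68, lies outside the grey band, and Aqp4, at -0.40, lies inside it.

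In ependymal-like cells Aqp4 held 126 CPM in SMA and 129 CPM in Con, and its log2 ratio was -0.04 (-0.26 to 0.19). Of the 7 genes with at least 100 UMIs there, only Atp1b2 was past the limit, at -0.39 (-0.61 to -0.16), where 23.2% of 6728 genes were, 9.02% with SMA higher and 14.2% with SMA lower. Gja1 was higher by 0.18 (0.01 to 0.35). Each was the 1 member with an interval on its side of 0, where 7.98% of genes lay above and 12.8% below. The cluster with more Atp1b2 made up 245 of 628 SMA and 139 of 293 Con ependymal-like cells. Atp1b2 was lower in SMA in that cluster (162 and 212 CPM) and in the other (71.8 and 78.5 CPM). Gja1 was lower in SMA in the first (114 and 137 CPM) and higher in the other (304 and 260 CPM). The part of this make-up in the 2 ratios was not tested. Without the shared barcodes 36 Con cells were left, Gja1 changed sign to -0.18 (-0.71 to 0.41), and Atp1b2 stood at -0.25 (-1.01 to 0.64). The other 5, including Kcnj10 at 0.00 and Mlc1 at 0.01, had intervals that included 0, and the median of the 7 was 0.00. Without the shared barcodes these 5 lay between -0.52 (Hepacam, -1.19 to 0.25) and -0.01 (Aqp4), again with 0 in each interval, and the median of the 7 was -0.23. The Aqp4 ratio moved to -0.52 when cells of up to 6000 genes were kept and to -0.42 at a mitochondrial limit of 20%. In several classes where Aqp4 was low it was also lower in SMA. It stood at 50.5 and 84.9 CPM in microglia-like cells, 45.2 and 82.8 CPM in endothelial-like cells and 23.9 and 44.0 CPM in COP-like cells, next to 12.5 and 25.2 CPM in erythroid-like cells. This was not so in OPC-like cells (66.2 and 66.4 CPM), in Schwann-like cells (53.8 and 43.7 CPM, with overlapping intervals) or in the fibroblast-like cluster present in both libraries (69.6 and 48.8 CPM, a log2 ratio of 0.51, -0.08 to 1.09). The part of free RNA from lysed astrocytes in these low levels was not tested.

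Astrocyte-like cells were next divided into 6 sub-clusters, again without the 8 genes. Aqp4 was highest, and Gjb6 lowest, in sub-clusters 4 and 5. Sub-cluster 1 was led by the cell-cycle genes Hmmr, Knl1, Esco2, Kif2c and Bub1, sub-cluster 2 by 9230105E05Rik, Hpgd, Gpr37, Nfasc and Clmn, and sub-cluster 3 by Zic1, Wnt3, Pax3, Irx1 and Creg2. Sub-cluster 4 was led by Tagln, Igfbp5, Npy, Pla2g3 and A330048O09Rik, and sub-cluster 5 by Aplnr, Il17rb, Cxcl10, 4833423E24Rik and Lrrc55. Sub-cluster 6 was led by the microglial genes Fcgr1, Fcrls and Siglech with Cryba4 and Bcl2a1d, and its 10 microglial markers summed to 2173 CPM in SMA and 2302 CPM in Con, against 104 to 214 CPM in the other sub-clusters. Doublets were treated only by the limit of 4000 genes, and the part of mixed barcodes in sub-cluster 6 was not tested.

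**Figure D3:**
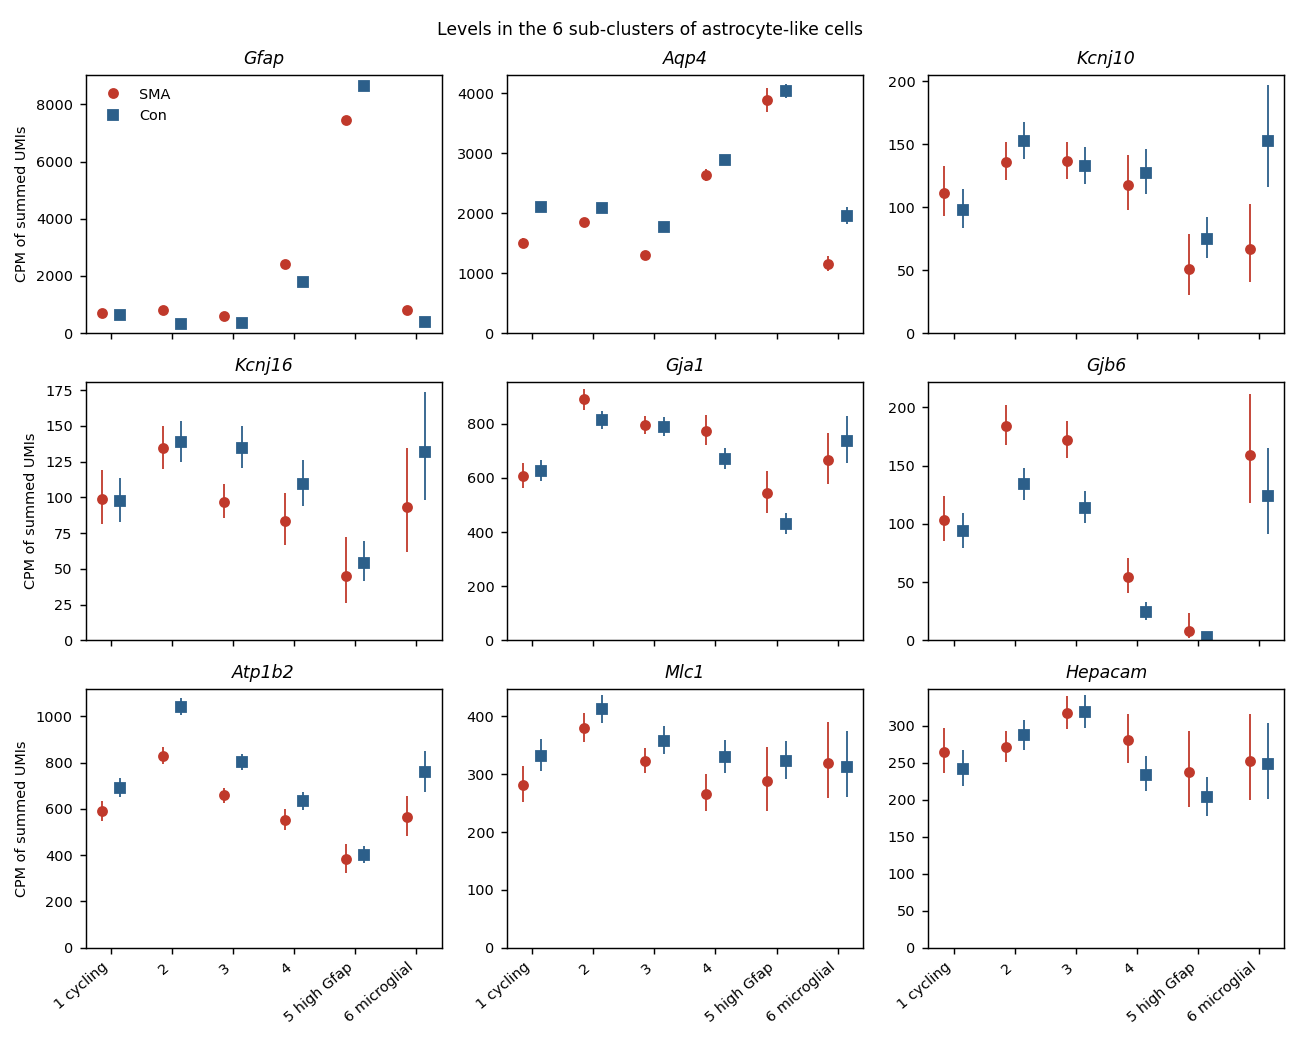
CPM of summed UMIs of Gfap and the 8 genes in the 6 sub-clusters of astrocyte-like cells, with SMA as red circles and Con as blue squares and 95% Poisson intervals as bars (none for Gfap). In sub-cluster 5 Gfap and Aqp4 have their highest levels (Aqp4 3890 and 4041 CPM) and Gjb6 its lowest (7.999 and 2.58 CPM).

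Gfap, the intermediate filament gene of fibrous and reactive astrocytes, was highest in sub-cluster 5, at 7468 CPM in SMA and 8626 CPM in Con, followed by sub-cluster 4 at 2422 and 1783 CPM. Aqp4 was highest in the same sub-clusters. It stood at 3890 and 4041 CPM in sub-cluster 5, 2635 and 2882 CPM in sub-cluster 4, and 1859 and 2090 CPM in sub-cluster 2. Gjb6 was lowest in these, going from 184 and 134 CPM in sub-cluster 2 through 54.5 and 24.3 CPM in sub-cluster 4 to 7.999 and 2.58 CPM in sub-cluster 5, where 3 UMIs were counted in each library. Gjb6 in sub-cluster 5 was thus 23.0-fold lower than in sub-cluster 2 in SMA (7.83 to 112) and 51.9-fold lower in Con (17.6 to 253). The levels in sub-cluster 5 were near the 4.19 and 4.44 CPM of microglia-like cells, so the size of these ratios is uncertain beyond counting error.

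The potassium channel and pump genes and Gja1 were also lowest in sub-cluster 5. How many of all genes were lowest there was not counted, so this is not shown to be particular to these genes. Sub-cluster 5 was also deeper, with medians of 9875 and 10632 UMIs against 5736 and 5359 UMIs in sub-cluster 2, and the part of depth was not tested. Kcnj16 stood at 45.3 and 54.2 CPM there against 134 and 139 CPM in sub-cluster 2, and Atp1b2 at 381 and 402 CPM against 829 and 1042 CPM. Kcnj10 stood at 50.7 and 74.9 CPM there against 136 and 152 CPM, and in SMA sub-cluster 6, with 20 UMIs, it was nearly as low at 66.5 CPM. Gja1 was lower by a smaller factor, at 544 and 429 CPM against 890 and 813 CPM. Mlc1 and Hepacam varied least, with the highest sub-cluster at most 1.43-fold and 1.57-fold above the lowest. Aqp4 alone of the 8 was highest there in both libraries, 2.09-fold (1.97 to 2.22) and 1.93-fold (1.86 to 2.01) higher than in sub-cluster 2.

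The undivided clustering already held a cluster with Gfap among its leading genes (244 SMA and 337 Con cells), in which Aqp4 stood at 2678 and 3375 CPM and Gjb6 at 53.6 and 22.0 CPM. In its larger neighbour of 834 SMA and 989 Con cells Aqp4 stood at 1499 and 1880 CPM and Gjb6 at 187 and 126 CPM. Cells of the cycling cluster (150 SMA and 187 Con cells) had a lower level than the other astrocyte-like cells in both libraries for each of the 8 genes, where 38.6% of 7277 genes did, with log2 ratios between -0.06 and -0.52. Aqp4 in cycling cells, for example, differed by -0.26 (-0.33 to -0.19) in SMA and -0.19 (-0.25 to -0.14) in Con. However, the intervals included 0 for Kcnj10, Kcnj16 and Hepacam in SMA and for Gjb6 and Mlc1 in Con.

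Sub-cluster 5 made up 3.09% of SMA (38 cells, 2.20 to 4.22) and 7.47% of Con (113 cells, 6.19 to 8.91) astrocyte-like cells. Of the 226 Con cells with unshared barcodes it made up 1.77% (4 cells, 0.484 to 4.47). That share is not a like comparison, since none of the 226 cells had 5000 or more UMIs. The medians of sub-cluster 5 were 9875 UMIs in SMA and 10632 UMIs in Con. When both libraries were given the sub-cluster weights of Con, Aqp4 differed by -0.24 instead of -0.40 and Gjb6 by 0.50 instead of 0.68, so that Gjb6 alone stayed past the limit. Without sub-cluster 5 the ratios were -0.34 and 0.57. These versions and those without shared Con barcodes were chosen after the data were seen.

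Within sub-clusters, with all Con cells, the directions of Aqp4, Gjb6 and Atp1b2 were those of the whole class. Aqp4 was lower in SMA in 6 of 6 sub-clusters, with an interval below 0 in 5 of them, the exception being sub-cluster 5 at -0.05 (-0.14 to 0.03). Its largest difference, -0.76, was in sub-cluster 6 with the microglial genes, and in sub-clusters 1 and 3 it was -0.48 and -0.44. Gjb6 was higher in SMA in 6 of 6, with an interval above 0 in sub-clusters 2, 3 and 4 at 0.46, 0.59 and 1.17. Atp1b2 was lower in SMA in 6 of 6, with an interval below 0 in 5, and lay between -0.43 and -0.08. Its ratio was -0.27 under Con weights. Mlc1 was lower in 5 of 6, Kcnj16 in 5 of 6 and Kcnj10 in 4 of 6, while Gja1 and Hepacam were each higher in 4 of 6. Without the shared Con barcodes the 3 sub-clusters of most cells had Con levels of 1771, 2135 and 1664 CPM of Aqp4 in sub-clusters 1, 2 and 3, each above the SMA level, and 178, 126 and 128 CPM of Gjb6, below the SMA level in sub-clusters 2 and 3 and above it in sub-cluster 1. The sub-clusters of a library come from the same pooled mice and are not replicates.

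**Figure D4:**
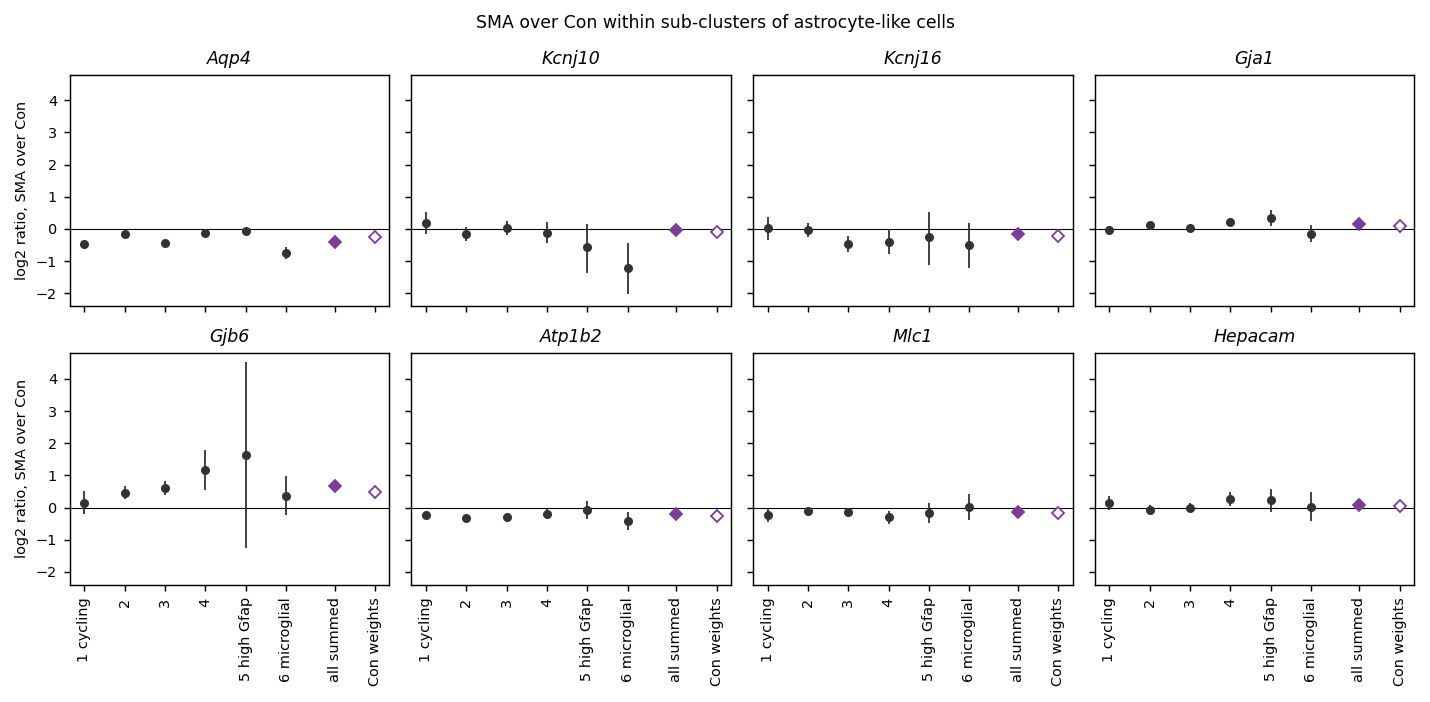
Log2 ratio of CPM, SMA over Con with all Con cells, of the 8 genes within the 6 sub-clusters of astrocyte-like cells (black circles), over all astrocyte-like cells (filled diamonds) and with both libraries weighted as in Con (open diamonds). Bars are 95% counting intervals. All 6 circles lie below 0 for Aqp4 and Atp1b2 and above 0 for Gjb6.

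The 38 related genes fell in 6 lists, and 27 of them had at least 100 UMIs in astrocyte-like cells. Past the limit of 0.32 were 7 of the 27, 4 with SMA higher and 3 with SMA lower, which is again close to the background of 21.7%. The median log2 ratio of the 27 was -0.05. The differences of Kcnk1, Lrrc8a and Fxyd6 were larger than that of any member.

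Among leak potassium channels Kcnk1 (TWIK-1) stood at 109 CPM in SMA and 46.8 CPM in Con, higher by 1.22 on the log2 scale (1.06 to 1.39), and Kcnk2 (TREK-1) at 28.5 and 21.9 CPM, higher by 0.38 (0.11 to 0.66). Lrrc8a, the required subunit of volume-regulated anion channels, stood at 165 and 88.5 CPM, higher by 0.90 (0.77 to 1.02). Fxyd6, a regulator of the sodium pump, stood at 306 and 622 CPM and differed by -1.02 (-1.09 to -0.96). Each of Kcnk1 and Lrrc8a was higher, and Fxyd6 lower, in SMA in 6 of 6 sub-clusters with intervals that left out 0. Without the shared Con barcodes Kcnk1 was still higher by 0.68 (0.28 to 1.11) and Lrrc8a by 0.72 (0.39 to 1.07), but Fxyd6 turned round, at 156 CPM in Con and a ratio of 0.97 (0.71 to 1.24). Kcnk2 then stood at -0.05 (-0.67 to 0.64). The differences of Kcnk1, Lrrc8a and Fxyd6 were not particular to astrocyte-like cells. With all Con cells Lrrc8a was also higher in SMA in ependymal-like (0.67), OPC-like (0.57), COP-like (0.74), Schwann-like (0.70) and microglia-like cells (0.46). Kcnk1 was higher in ependymal-like (0.42) and microglia-like cells (1.22) but not in OPC-like cells (-0.07). Fxyd6 was lower in ependymal-like (-0.55) and oligodendrocyte-like cells (-0.95) but not in COP-like cells (0.09).

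Of the sodium pump list, 6 of 7 genes were counted and Fxyd6 was the 1 past the limit. Of the chloride, bicarbonate and volume list 6 of 7 were counted, with 1 higher. The sodium bicarbonate cotransporter gene Slc4a4 had most UMIs, at 936 and 847 CPM and a log2 ratio of 0.14 (0.10 to 0.19), or 0.30 (0.18 to 0.42) without the shared barcodes. Lrrc8a overlaps the antisense gene 1700084E18Rik, with 33 and 37 UMIs. On its own strand it overlaps the protein-coding gene Gm28035, which is not among the genes counted, and the effect on its counts was not tested.

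Of the water channels 2 of 3 were counted, and Aqp11 was higher by 0.48 (0.22 to 0.75), at 31.8 and 22.8 CPM, and by 0.54 (-0.16 to 1.35) without the shared barcodes. Of the potassium channels both counted genes of 6 were those higher in SMA. Of the gap junction list 4 of 8 were counted and none was higher. Panx1, the 1 past the limit, differed by -0.34 with an interval from -0.86 to 0.18, on 52 and 85 UMIs, and Gjc1, with most UMIs, by -0.17 (-0.39 to 0.05). Without the shared barcodes Panx1 changed sign to 0.79 (-0.83 to 3.12), on 3 Con UMIs, and Gjc1 stood at -0.10 (-0.63 to 0.49). Of the complex that anchors Aqp4 at endfeet, all 7 genes were counted. Dmd (dystrophin) was lower, at 60.2 and 84.6 CPM with a ratio of -0.49 (-0.66 to -0.33), or -0.84 (-1.18 to -0.49) without the shared barcodes, and Dtna (dystrobrevin), with most UMIs, stood at 180 and 185 CPM with a ratio of -0.03 (-0.13 to 0.07), or -0.31 (-0.54 to -0.08) without the shared barcodes.

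**Figure D5:**
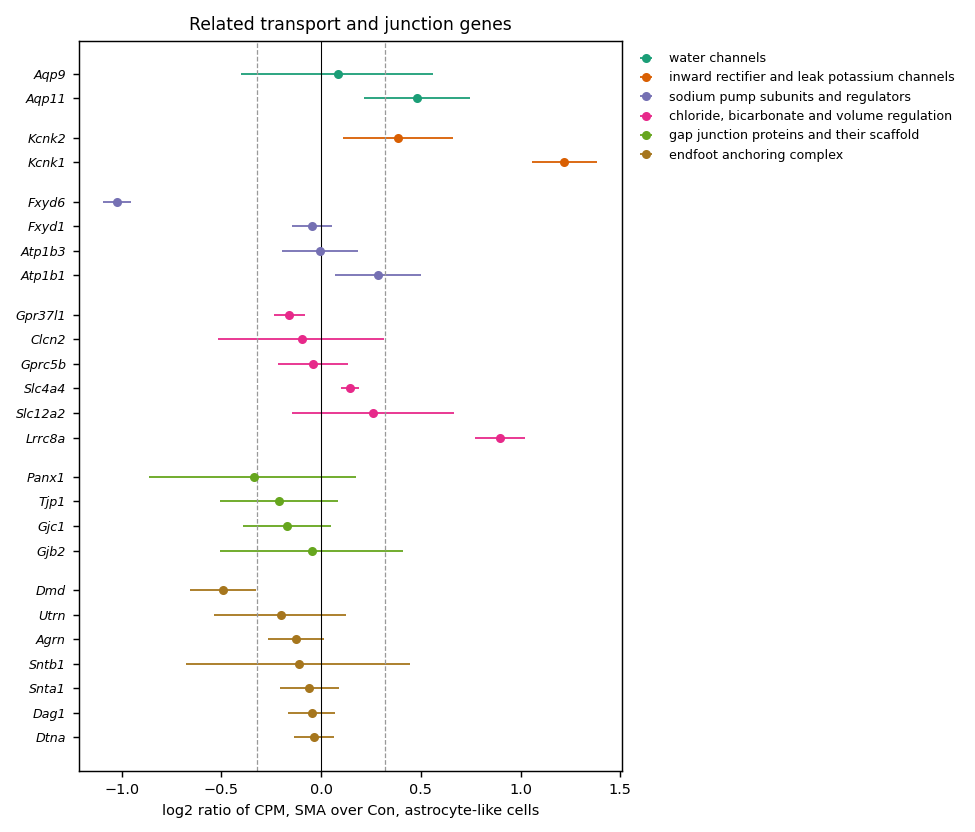
Log2 ratio of CPM, SMA over Con, in astrocyte-like cells for the reported related genes with at least 100 UMIs, coloured by list, with 95% counting intervals. Dashed lines are the limit of 0.32. All Con cells are included. Kcnk1 at 1.22 and Lrrc8a at 0.90 lie farthest to the right and Fxyd6 at -1.02 farthest to the left.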

How the data were processed

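The deposited files hold raw counts of UMIs per gene and barcode, produced by the authors in Cell Ranger (4.0.0 per the file headers, build mm10 per the submitters' processing notes) from 10x Genomics 3′ libraries. The limits and the removal of a high-ribosome cluster (over 30%, here 1341 Con barcodes) follow the authors' stated filters. Cells were clustered by the Louvain method on a shared-neighbour graph (2000 variable genes, 30 components, 20 neighbours, resolution 1, python-igraph 0.11.9, scikit-learn 1.9.0), without the members, the related genes, and haemoglobin, ribosomal, mitochondrial and sex-linked genes. Of 29 clusters 2 stayed unnamed, and 11 classes were compared, each of 50 cells or more in both libraries. Summed UMIs have exact Poisson, ratios exact conditional binomial and shares exact Clopper-Pearson intervals (scipy 1.17.1), and the limit for a summed count of 0 is 3 counts. The interval code was tested on simulated data.

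The members, the lists and the tests were chosen with earlier results of these data known. All 8 members were named. Related genes were named when past a log2 difference of 0.32 (at most 2 per list) or when they had most UMIs of their list. Names, being rebuilt, may differ from the study's. Gene IDs matched GENCODE M21 for 32158 of 32285 genes. Alternatives covered the shared barcodes, depth, cell limits, resolution, cycling cells, weighting, totals, centring and minimum UMIs. Some genes that these rules would name are not reported here, though they remain in the counts.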

Additional observations from a re-analysis of the deposited data

How the results depend on the processing

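The count of 7 genes highest in astrocyte-like cells was the same under all 15 alternatives, and that of genes at 2-fold or more over ependymal-like cells lay between 4 and 5. The median member log2 ratio lay between -0.14 and -0.02 in astrocyte-like cells (17 alternatives) and between -0.23 and 0.04 in ependymal-like cells (16 alternatives). The 2 members past the limit of 0.32 became 1 when the SMA copies of shared barcodes were kept and 1 when sub-clusters were weighted as in Con, and the 7 related genes became 13 with no minimum number of UMIs, where more genes are counted. Leaving out the Con barcodes also listed in SMA, chosen after seeing the data, turned Gja1 to -0.079 and Hepacam to -0.032 in astrocyte-like cells and Gja1 to -0.18 in ependymal-like cells, and brought Gjb6 from 0.68 to 0.15 and Aqp4 from -0.40 to -0.10, so that the 2 members past the limit were Atp1b2 (-0.41) and Kcnj16 (-0.33) in their place, where 44.4% of all genes were past it. Alternatives on sub-clusters were also chosen after seeing the data. The causes were not tested. No paired analysis was possible because each group was 1 library. Depth limits Gjb6 in ependymal-like cells, on 26 and 11 UMIs.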

Other observations

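Other connexin genes of the related lists had their highest levels outside astrocyte-like cells. Gjb1 stood at 146 CPM in SMA and 93.8 CPM in Con oligodendrocyte-like cells and at 93.0 and 134 CPM in Schwann-like cells. Gjc3 was highest in Schwann-like cells, at 365 and 357 CPM. Gja4 and Gjc1 were highest in mural-like cells, at 429 and 655 CPM and at 508 and 564 CPM. Gjb2 (connexin 26) was highest in fibroblast-like cells at 190 and 81.0 CPM, as Gjb6 was, and stood at 9.22 and 9.50 CPM in astrocyte-like cells.

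Gfap, which was not chosen beforehand, was, with all Con cells, lower in SMA in sub-cluster 5 and higher in the other 5 sub-clusters. It stood at 815 CPM in SMA and 327 CPM in Con in sub-cluster 2 and at 615 and 366 CPM in sub-cluster 3, and at 7468 and 8626 CPM in sub-cluster 5. In the Con cells with unshared barcodes it stood at 273 CPM in sub-cluster 2 and 420 CPM in sub-cluster 3, and at 5892 CPM in the 4 cells of sub-cluster 5, below the SMA level. With 1 library per group these differences were not tested.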
